A study of Mus musculus with 6 samples.

Results

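Expression of 10 genes used as astrocyte markers was examined in the brains of neonatal mice given testosterone propionate (TP), an ester of testosterone, or sesame oil alone. The genes are Gfap, S100b, Aqp4, Gja1, Slc1a2, Slc1a3, Glul, Aldh1l1, Aldoc and Fabp7. They were taken by name, as every probe set that the platform annotation pairs with 1 of these genes and no other gene. A probe set is a group of short oligonucleotides on the array that report on a stretch of a transcript, and these genes had 32 of the 34945 single-gene probe sets. A further probe set, which names Slc1a2 together with a predicted gene, was not used.

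The mice were C57BL/6 and received 1 mg of TP in 20 µL of sesame oil, or the oil alone, by intraperitoneal injection on postnatal day 2. Whole brains were collected on postnatal day 6, and each array was hybridised with RNA pooled from 6 mice. Females had 2 arrays for TP and 2 for vehicle, and males had 1 array for each. The second female array of each treatment is labelled as a replica of the first, and the labels do not say whether it came from another pool. The p-values in females alone therefore rest on differences between hybridisations that may be technical rather than between animals. The same holds for the test of whether the TP difference varied between the sexes. P-values over both sexes, and for males against females, rest also on how far the TP difference varied between the sexes.

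Astrocytes are the glia that take up glutamate and potassium around synapses, pass glutamine and lactate to neurons, and line blood vessels with water channels on their end feet. In rodents they are produced mainly in the days around and after birth, partly from radial glia. The first postnatal week is thus a time when many of their markers climb, though not necessarily all. Gonadal steroids are known to alter astrocyte shape and GFAP in the neonatal rat hypothalamus, mostly after conversion of testosterone to estradiol. None of the 10 genes is made only by astrocytes. Fabp7 and Slc1a3 are also made by radial glia and the Bergmann glia of the cerebellum, Glul and S100b by cells of the oligodendrocyte lineage, Aqp4 by ependyma and Gja1 by meninges. In whole-brain RNA, fewer cells of a type and less RNA per cell cannot be told apart.

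The arrays had medians between 5.69 and 5.74 log2 units, and no pair of arrays shared more than 215 equal values among 45101 probe sets. A label check with sex-linked genes set 1 array apart. Xist, a long noncoding RNA made from the inactive X, stood at 10.45 log2 units on the array labelled male TP and at 5.29 on the male vehicle array. It stood at 12.81 and 12.83 on the female TP arrays and at 12.71 and 12.61 on the female vehicle arrays. The Y-linked gene Eif2s3y was at 9.12 on the array labelled male TP and 9.16 on the male vehicle array, against 2.84 to 3.09 on the 4 female arrays. The Xist value of the array labelled male TP goes against its label, so values of the female arrays alone are given beside those over both sexes, and the male against female counts and probe set values are also given without it.

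None of the 32 astrocyte probe sets differed between TP and vehicle past the threshold, in females or over both sexes. In females, limma gave adjusted p-values from 0.569 to 0.995 for the 32 probe sets, with 0 passing an adjusted p of 0.05 (Benjamini-Hochberg over all single-gene probe sets) and 5 at an unadjusted p under 0.05. Over all single-gene probe sets, 0.00572% passed in this comparison and 7.83% had an unadjusted p under 0.05. Over both sexes, with sex as a covariate, adjusted p-values by limma ran from 0.304 to 0.995, with 0 passing and 6 at an unadjusted p under 0.05. The shares over all probe sets were 0.0% and 12.3%.

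The differences were small as well. Over both sexes 17 of the 32 probe sets were higher and 15 lower with TP, against 42.2% higher and 57.8% lower over all probe sets. Their median log2 difference was 0.016, against -0.020 over all probe sets, and 31 of the 32 differed by less than 1.2-fold. Differences under 1.2-fold were usual over all probe sets too, with 5th and 95th percentiles of -0.21 and 0.19 log2 units. The 95% confidence intervals of the 32 differences, unadjusted, lay between -0.43 and 0.45 log2 units, which spans 1.34-fold lower to 1.37-fold higher for single probe sets. In females alone the intervals were wider, from 1.45-fold lower to 1.41-fold higher. There 20 were higher and 12 lower, against 44.5% and 55.5% over all probe sets, with a median of 0.020 against -0.015, and the largest difference was 1.27-fold. The plot of the brightest probe set of each gene shows how little most of these genes varied between arrays.

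**Figure D1:**
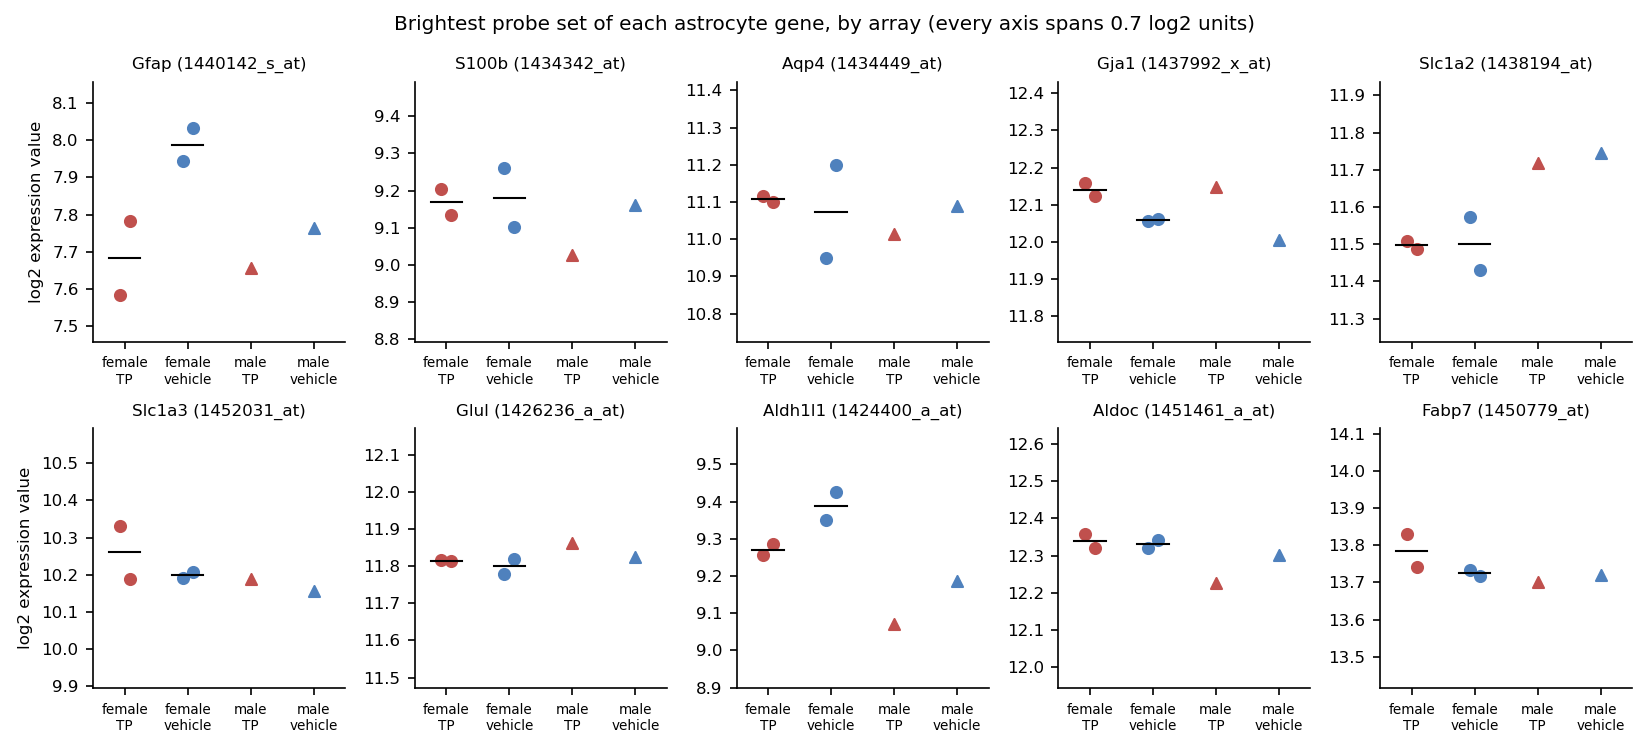
Log2 expression value (vertical axis, 0.7 log2 units in each panel) of the brightest probe set of each of the 10 genes on each array. Red marks TP, blue vehicle, circles females and triangles males, and bars are the means of 2 female arrays. The TP points lie below the vehicle points within each sex for Gfap and Aldh1l1 and above them for Gja1.

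Separation of the arrays was counted without a test. In females, both TP arrays lay on one side of both vehicle arrays for 13 of the 32 probe sets (40.6%), 6 higher and 7 lower, where 38.4% of all probe sets were (16.0% higher, 22.5% lower). For 9 of the 32 (28.1%) the male TP array also lay on that side of the male vehicle array, where the share over all probe sets was 26.0%. As a group, the astrocyte probe sets were therefore separated about as often as other probe sets. The 9 were not spread evenly over the genes: 3 were all the probe sets of Gfap, 4 were among the 6 of Gja1, and the others were 1 each of Slc1a3 and Aldh1l1. For 7 of the 32 (21.9%) all 3 TP arrays lay on one side of all 3 vehicle arrays, 4 higher and 3 lower, where 15.1% of all probe sets did (6.01% higher, 9.12% lower).

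Gfap encodes glial fibrillary acidic protein, the intermediate filament by which astrocytes are usually recognised. The brightest of its 3 probe sets, 1440142_s_at, stood at 7.58 and 7.78 log2 units in female TP arrays, against 7.94 and 8.03 in female vehicle arrays. In males it stood at 7.66 in the TP array and 7.76 in the vehicle array. The TP arrays were lower within each sex, although the higher female TP array exceeded the male vehicle array. Its mean was 7.68 ± 0.14 in female TP and 7.99 ± 0.06 in female vehicle arrays (SD, n = 2 each), a log2 difference of -0.30 (SE 0.10, limma adjusted p = 0.594).

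The other Gfap probe sets gave smaller differences of the same sign in females. Probe set 1426508_at stood at 6.87 and 6.98 in female TP against 7.03 and 7.02 in female vehicle arrays, and at 6.74 in the male TP against 7.06 in the male vehicle array. Probe set 1426509_s_at stood at 6.48 and 6.56 in female TP against 6.69 and 6.59 in female vehicle arrays, and at 6.32 in the male TP against 6.64 in the male vehicle array. For both, all 3 TP arrays lay below all 3 vehicle arrays, and the array labelled male TP was the lowest of the 6. In females alone their differences were -0.10 (adjusted p = 0.801) and -0.12 (adjusted p = 0.764) by limma.

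Over both sexes the Gfap differences were -0.24 (SE 0.08, 95% interval -0.43 to -0.05) for 1440142_s_at, -0.17 (SE 0.07, -0.34 to -0.0029) for 1426508_at and -0.18 (SE 0.07, -0.35 to -0.02) for 1426509_s_at. The largest corresponds to 1.18-fold lower in TP arrays. Their limma adjusted p-values were 0.349, 0.402 and 0.385, so none passed. Leaving out any 1 array kept all 3 negative, between -0.30 and -0.10. Of 2366 genes with 3 single-gene probe sets, 503 (21.3%) had all 3 lower over both sexes and 11 (0.465%) had all 3 separated lower within both sexes. This count was made after the Gfap values were seen and is a description.

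The 300 bases around the annotated start of Gfap are shown because all 3 of its probe sets were separated lower in TP arrays within both sexes. Aldh1l1 and S100b, with 2 probe sets each, also had all of them negative in each sex. The window is chr11:102897151-102897450 of GRCm38.p6, minus strand, from RefSeq, and runs 5′ to 3′ from 250 bases before the start to 50 bases after it. Capitals mark TTCCNGGAA, a pattern bound by STAT factors. Cytokine signals carried by STAT factors are known to switch on Gfap in astrocyte precursors. Whether this match has any part in that was not tested.
Gfap: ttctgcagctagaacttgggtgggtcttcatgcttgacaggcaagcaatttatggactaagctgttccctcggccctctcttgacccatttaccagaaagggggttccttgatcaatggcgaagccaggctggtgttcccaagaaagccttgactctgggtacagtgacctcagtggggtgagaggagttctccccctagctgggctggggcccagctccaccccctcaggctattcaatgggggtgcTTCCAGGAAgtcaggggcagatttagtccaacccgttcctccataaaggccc
The match begins 2 bases before the start and is a description of the sequence, not of binding. Gfap was not the only member with this pattern, as a window of Aldoc held it 83 bases before the start. Over the promoter windows of 27025 genes, taking the first listed window of each, 310 (1.15%) held this pattern. The members were searched in all of their listed windows, and the Aldoc match is not in the first listed window of that gene. The same windows were searched on both strands for the full palindromes of the estrogen response element and of the androgen response element, which 0.0666% and 0.0037% of them held. No window of the members in the table matched either, and distal sites lie outside such windows. Windows were in the table for 9 of the 10 genes, all but Aqp4.

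Gja1 encodes the connexin that forms most of the gap junctions coupling astrocytes to each other. All of its 6 probe sets had positive differences in females and in males. The clearest was 1438945_x_at, at 10.98 and 10.89 log2 units in female TP against 10.64 and 10.77 in female vehicle arrays. In males it stood at 10.98 in the TP array and 10.59 in the vehicle array. All 3 TP arrays lay above all 3 vehicle arrays, and the log2 difference over both sexes was 0.28 (SE 0.07, 95% interval 0.11 to 0.45, limma adjusted p = 0.304). This is 1.22-fold, the largest difference over both sexes among the 32 probe sets, and in females alone it was 0.23 (SE 0.09, adjusted p = 0.623).

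A further 3 Gja1 probe sets were separated in the same way, with all 3 TP arrays above all 3 vehicle arrays. Probe set 1437992_x_at, the brightest, stood at 12.16 and 12.12 in female TP against 12.06 and 12.06 in female vehicle arrays, and at 12.15 in the male TP against 12.005 in the male vehicle array. Probe set 1415800_at stood at 11.30 and 11.32 in female TP against 11.07 and 11.27 in female vehicle arrays, and at 11.39 in the male TP against 11.10 in the male vehicle array. For 1415800_at female vehicle array 2 lay close to the TP arrays, and without female vehicle array 1 the female difference was 0.042 where all 4 arrays gave 0.14. Probe set 1438650_x_at stood at 10.90 and 10.77 in female TP against 10.61 and 10.62 in female vehicle arrays, and at 10.76 in the male TP against 10.68 in the male vehicle array.

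The differences over both sexes were 0.10 for 1437992_x_at, 0.19 for 1415800_at and 0.18 for 1438650_x_at, with limma adjusted p of 0.513, 0.390 and 0.381. In females alone they were 0.08, 0.14 and 0.22, with adjusted p of 0.831, 0.747 and 0.622. The remaining probe sets did not separate. Probe set 1415801_at had a difference of 0.04 (adjusted p = 0.847), against 0.0039 in females alone, and 1438973_x_at of 0.08 (adjusted p = 0.665), against 0.08 in females alone. The last was 1 of 6 astrocyte probe sets called dim here, with a mean level below 5.49 log2 units, the 40th percentile of all single-gene probe sets. By the manufacturer's naming, a probe set ending in _x_at holds probes that can also match other transcripts, and 4 of the 6 end so. Of 244 genes with 6 single-gene probe sets, 18 (7.38%) had all 6 higher over both sexes and 6 (2.46%) had at least 4 separated higher within both sexes, a count likewise made after the values were seen.

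The promoter window of Gja1, the gene with positive differences throughout, is chr10:56377050-56377349 of GRCm38.p6, plus strand, from RefSeq. Capitals mark TGANTCA, the pattern bound by AP-1 factors such as Fos and Jun, which was added to the search after the sequence was seen.
Gja1: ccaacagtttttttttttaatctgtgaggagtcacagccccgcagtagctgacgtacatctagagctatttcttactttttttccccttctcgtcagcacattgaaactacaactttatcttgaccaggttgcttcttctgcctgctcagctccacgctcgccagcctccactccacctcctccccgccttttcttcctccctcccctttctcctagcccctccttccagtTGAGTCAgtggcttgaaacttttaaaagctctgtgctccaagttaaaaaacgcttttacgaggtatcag
The match begins 19 bases before the start. This pattern was present in 2144 (7.93%) of the same 27025 windows. No Gja1 match was found for the STAT pattern.

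**Figure D2:**
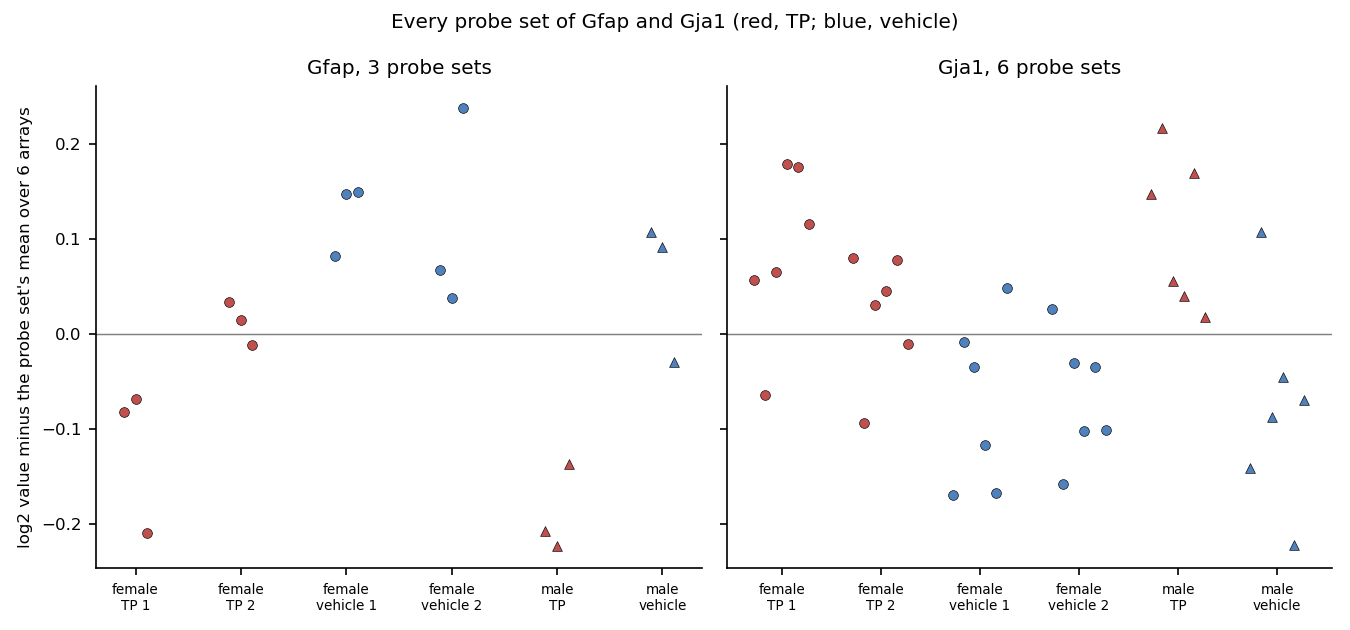
Log2 value of each probe set minus its own mean over the 6 arrays (vertical axis, log2 units), for the 3 probe sets of Gfap and the 6 of Gja1, by array. Red marks TP and blue vehicle. The TP points lie mostly below 0 for Gfap and mostly above 0 for Gja1, and the lowest Gfap points include those of female TP array 1 and of the array labelled male TP.

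Aqp4 encodes aquaporin 4, the water channel of astrocyte end feet. Its brightest probe set, 1434449_at, stood at 11.12 and 11.10 in female TP against 10.95 and 11.20 in female vehicle arrays, and at 11.01 in the male TP against 11.09 in the male vehicle array. The female vehicle arrays bracketed the TP arrays, and the difference over both sexes was -0.0022 (95% interval -0.19 to 0.18). Probe set 1425382_a_at gave 0.08 (95% interval -0.07 to 0.22) and the dim 1447745_at 0.15 (-0.03 to 0.34). The limma adjusted p-values of the 3 lay between 0.473 and 0.995. In females alone the differences were 0.03, 0.07 and 0.16 for these probe sets in the same order, with adjusted p between 0.754 and 0.958.

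S100b encodes a calcium-binding protein of astrocytes. Probe set 1434342_at stood at 9.20 and 9.13 in female TP against 9.26 and 9.10 in female vehicle arrays, and at 9.03 in the male TP against 9.16 in the male vehicle array. The groups overlapped, and the difference over both sexes was -0.05 (95% interval -0.22 to 0.11). In females alone it was -0.01 (adjusted p = 0.984), while the male TP minus vehicle difference was -0.14. Probe set 1419383_at gave -0.03 (95% interval -0.17 to 0.11), and -0.04 in females alone.

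Slc1a2 and Slc1a3 encode GLT-1 and GLAST, the transporters that clear glutamate from synapses, and their probe sets differed in sign. The brightest Slc1a2 probe set, 1438194_at, stood at 11.51 and 11.49 in female TP against 11.57 and 11.43 in female vehicle arrays, and at 11.72 in the male TP against 11.74 in the male vehicle array. Its difference over both sexes was -0.01 (95% interval -0.16 to 0.14), and -0.0034 in females alone. The other Slc1a2 probe sets were divided, with 1451627_a_at and 1439940_at negative (-0.16 and -0.20) and 1433094_at and 1459014_at, both dim, positive (0.12 and 0.16). In females alone 1451627_a_at had -0.03, 1433094_at 0.10 and 1459014_at 0.02.

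Probe set 1439940_at had the largest female difference of the 32. It stood at 6.72 and 6.64 in female TP against 7.00 and 7.04 in female vehicle arrays, a difference of -0.34 (SE 0.08, limma adjusted p = 0.569). In males it stood at 7.17 in the TP array and 7.09 in the vehicle array. The probe sets of this gene therefore disagreed in females.

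For Slc1a3, 5 of the 6 probe sets were higher and 1 lower with TP in females. The brightest, 1452031_at, stood at 10.33 and 10.19 in female TP against 10.19 and 10.21 in female vehicle arrays, and at 10.19 in the male TP against 10.16 in the male vehicle array. Its difference over both sexes was 0.05 (95% interval -0.10 to 0.20), and 0.06 in females alone. Probe set 1443749_x_at had the largest difference over both sexes, 0.22 (SE 0.10, limma adjusted p = 0.425), at 9.86 and 9.89 in female TP against 9.50 and 9.87 in female vehicle arrays. Female vehicle array 2 lay among the TP arrays for this probe set, and the female difference of 0.19 was 0.0037 without female vehicle array 1.

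Probe set 1426341_at of Slc1a3 stood at 9.47 and 9.50 in female TP against 9.32 and 9.28 in female vehicle arrays, a difference of 0.18 (SE 0.08, limma adjusted p = 0.637). In males it stood at 9.08 in the TP array and 9.41 in the vehicle array, and the difference over both sexes was 0.0096. Probe sets 1426340_at and 1439072_at had 0.03 and -0.03 over both sexes, against 0.03 and 0.02 in females alone. The dim probe set 1440491_at was the only Slc1a3 probe set separated within both sexes, and its difference over both sexes was -0.07 (adjusted p = 0.641), against -0.09 in females alone.

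Glul encodes glutamine synthetase, which turns the glutamate taken up into glutamine. Its brightest probe set, 1426236_a_at, varied least of the 32, over a range of 0.083 log2 units, at 11.82 and 11.81 in female TP against 11.78 and 11.82 in female vehicle arrays, and at 11.86 in the male TP against 11.82 in the male vehicle array. The difference over both sexes was 0.02 (95% interval -0.11 to 0.16), and that of 1426235_a_at was 0.04 (-0.12 to 0.20). In females alone they were 0.02 and 0.09, and the male pair had the opposite sign for 1426235_a_at (-0.06).

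Aldh1l1 encodes a folate enzyme used as a marker of nearly all astrocytes. Probe set 1424400_a_at stood at 9.26 and 9.28 in female TP against 9.35 and 9.43 in female vehicle arrays, and at 9.07 in the male TP against 9.19 in the male vehicle array. The TP arrays were lower within each sex, and the difference over both sexes was -0.12 (SE 0.06, 95% interval -0.26 to 0.02, limma adjusted p = 0.461), the same as in females alone (-0.12, adjusted p = 0.749). The dim probe set 1424401_at had -0.08 (95% interval -0.22 to 0.07), and -0.06 in females alone.

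Aldoc encodes aldolase C, the brain form of a glycolytic enzyme, which Purkinje cells also make. Its brightest probe set, 1451461_a_at, stood at 12.36 and 12.32 in female TP against 12.32 and 12.34 in female vehicle arrays, and at 12.23 in the male TP against 12.30 in the male vehicle array. Its difference over both sexes was -0.02 (95% interval -0.16 to 0.12), and 0.0088 in females alone. Probe set 1424714_at stood at 7.09 and 7.13 in female TP against 7.16 and 7.40 in female vehicle arrays, and at 7.34 in the male TP against 7.23 in the male vehicle array. Both female TP arrays lay below both female vehicle arrays, with a female difference of -0.17 (limma adjusted p = 0.721), and the male pair had the opposite sign (0.10). Over both sexes the difference was -0.08 (95% interval -0.29 to 0.13).

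Fabp7 encodes brain lipid-binding protein, carried by radial glia and young astrocytes. Its only probe set, 1450779_at, stood at 13.83 and 13.74 in female TP against 13.73 and 13.72 in female vehicle arrays, and at 13.70 in the male TP against 13.72 in the male vehicle array. Both female TP arrays lay just above both female vehicle arrays, and the difference over both sexes was 0.03 (95% interval -0.11 to 0.18, limma adjusted p = 0.856). In females alone it was 0.06 (adjusted p = 0.887), and in males -0.02.

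**Figure D3:**
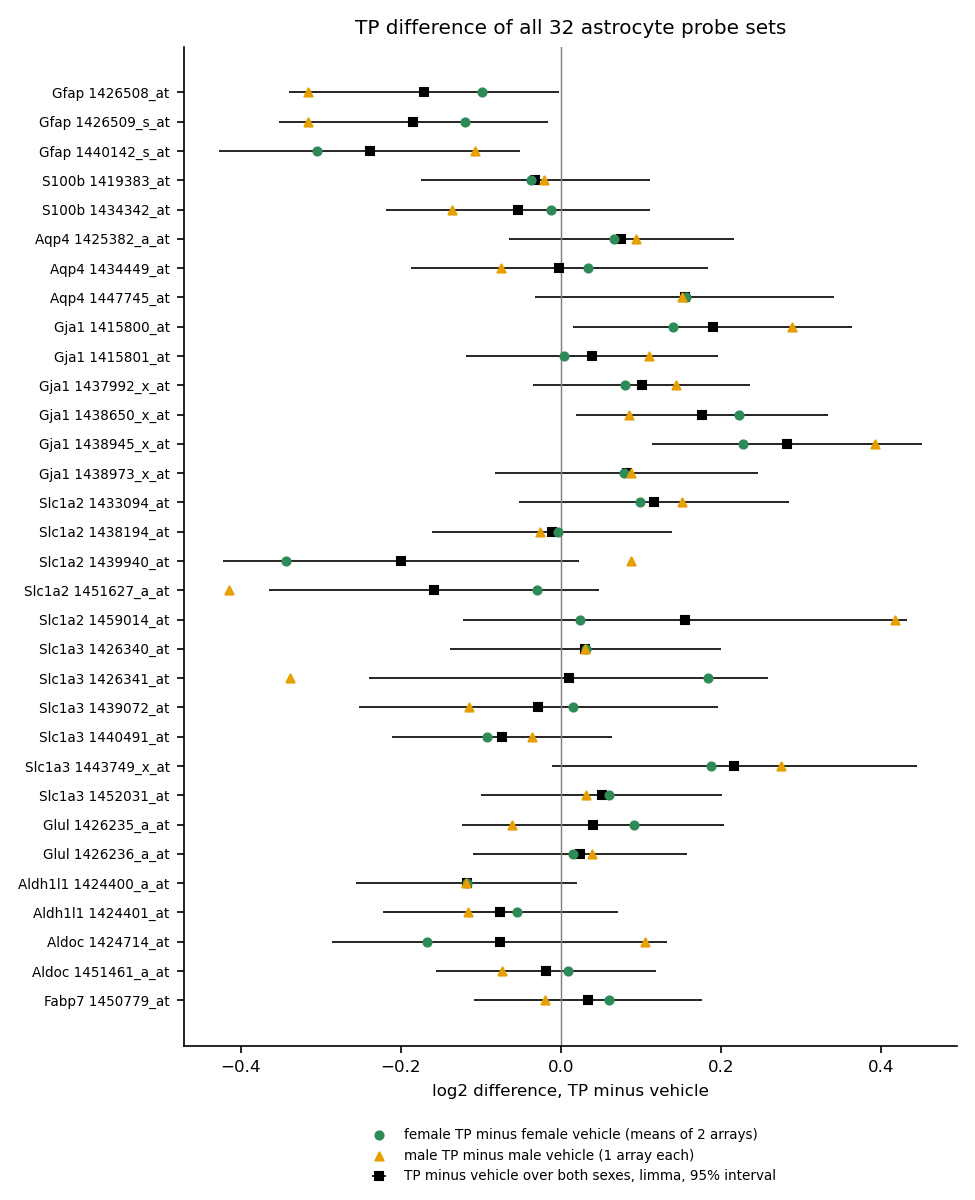
TP minus vehicle difference (horizontal axis, log2 units) of all 32 astrocyte probe sets. Squares with bars are the limma estimates over both sexes with 95% intervals, circles the female differences and triangles the male differences. Intervals leave out 0 for 6 probe sets, 3 of Gfap below it and 3 of Gja1 above it, and none passed the adjusted threshold.

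In males, with 1 array per treatment, there was no replicate and no test. The TP array was higher for 16 and lower for 16 of the 32 probe sets, with a median log2 difference of 0.0051 against -0.024 over all probe sets. Differences of at least 1.2-fold were seen for 8 of the 32 (25%), 4 higher and 4 lower, where the share over all probe sets was 14.3% (6.22% higher, 8.12% lower). The differences over the 32 ran from -0.41 for Slc1a2 1451627_a_at to 0.42 for the dim Slc1a2 1459014_at. The female differences of these probe sets were -0.03 and 0.02.

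The test of whether the TP difference was larger in one sex gave no probe set past the threshold. The male minus the female TP difference ran from -0.52 to 0.43 over the 32 probe sets, all with a limma adjusted p of 0.9999, and 3 had an unadjusted p under 0.05. Of the 32, 15 were positive and 17 negative, against 48.8% and 51.2% over all probe sets. Over all probe sets 0.02% passed and 4.84% had an unadjusted p under 0.05. The 3 were Slc1a3 1426341_at (-0.52, SE 0.13), Slc1a2 1439940_at (0.43, SE 0.14) and Slc1a2 1451627_a_at (-0.39, SE 0.13). Each sets the array labelled male TP against a single male vehicle array.

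Males and females were compared over both treatments, with treatment as a covariate. None of the 32 probe sets passed by limma (smallest adjusted p = 0.309), 4 had an unadjusted p under 0.05, and 9 were higher and 23 lower in males. Over all probe sets 0.0114% passed, 12.5% had an unadjusted p under 0.05, and 45.4% were higher and 54.6% lower in males. Both male arrays lay beyond all 4 female arrays for 9 of the 32 (28.1%), 4 higher and 5 lower, where the share over all probe sets was 20.4% (7.83% higher, 12.5% lower). Without the array labelled male TP, 0 of the 32 had an unadjusted p under 0.05 by limma, where 8.32% of all probe sets did, 0 passed, and 11 were higher and 21 lower in males.

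The 4 probe sets with an unadjusted p under 0.05 were of Slc1a2, Aldh1l1 and Gja1. Slc1a2 1438194_at averaged 11.73 over the male arrays, given above, and 11.50 over the female arrays, a difference of 0.23 (SE 0.07, limma adjusted p = 0.309). Both male arrays lay above all female arrays for this probe set and for 1439940_at, whose difference was 0.28 (SE 0.10, adjusted p = 0.350). Aldh1l1 1424400_a_at averaged 9.13 in males and 9.33 in females, a difference of -0.20 (SE 0.06, adjusted p = 0.319), and both of its probe sets were lower in both male arrays than in all female arrays. Gja1 1415801_at was higher in males by 0.24 (SE 0.07, adjusted p = 0.309), while the other 5 Gja1 probe sets had differences between -0.04 and 0.0047. Without the array labelled male TP, the differences were 0.24 for Slc1a2 1438194_at, -0.20 for Aldh1l1 1424400_a_at and 0.19 for Gja1 1415801_at, with adjusted p between 0.608 and 0.668. That of Slc1a2 1439940_at was 0.067 (adjusted p = 0.885) without this array, and 0.50 without the male vehicle array.

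Markers of the cerebellum and of dividing cells also lay lower in the male arrays. All 11 measured genes of the cerebellum were lower in males (median -0.22), as were all 11 genes of cycling cells (median -0.24), with 0 past the threshold in either list, against a median of -0.02 over all genes. The mean log2 level of the cerebellum list was 7.52 and 7.56 in the male arrays, against 7.74 to 7.83 in the female arrays. Radial glia and neural stem cell genes were lower in males for 17 of 20 (median -0.11). Blood genes lay the other way, higher in males for 7 of 8 (median 0.23) with 0 past the threshold and a mean level of 5.34 and 5.56 in the male arrays, against 5.15 to 5.20 in the female arrays. The part of these lists in the Slc1a2, Gja1 and Aldh1l1 values was not tested.

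Gene lists around the astrocyte markers were described with 1 probe set per gene. Over both sexes, 0 genes passed in any of these lists by limma, in either direction, where 0.0% of all probe sets passed. Among 31 measured genes of a wider astrocyte list, 15 were higher and 16 lower with TP, with a median of -0.0075 against -0.029 over all genes. In females alone 15 were higher and 16 lower (median -0.01, against -0.02 over all genes). Its smallest unadjusted p-values belonged to the zinc transporter gene Slc39a12 (-0.16), Bmpr1b (-0.20), a receptor for bone morphogenetic proteins, and the neurotensin receptor gene Ntsr2 (-0.12), with adjusted p of 0.394, 0.396 and 0.449. Among 26 genes of reactive astrocytes, 8 were higher and 18 lower (median -0.03, and -0.02 in females alone), led by the sphingosine kinase gene Sphk1 (-0.29, adjusted p = 0.300). Those medians were about the ones of all genes, and 57.8% of all probe sets were lower over both sexes.

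Partners of the water and potassium channels and gap junctions numbered 17, with 7 higher and 10 lower (median -0.0080). In females alone 8 were higher and 9 lower (median -0.04). Gjb2, another connexin gene, had -0.23 (SE 0.06, limma adjusted p = 0.304), opposite in sign to Gja1. The connexin gene Gjb6 had 0.11 (SE 0.08, adjusted p = 0.595), and 0.11 in females alone, the same sign as Gja1. Dmd, whose short brain product anchors Aqp4 at end feet, had 0.24 (SE 0.08, adjusted p = 0.351). Of 17 genes that handle glutamate, glutamine and lactate, 6 were higher and 11 lower (median -0.02), and in females alone 8 and 9 (median -0.0083), led by the cystine transporter gene Slc7a11 (0.38, adjusted p = 0.300).

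Signalling genes of astrocyte differentiation numbered 39, with 17 higher and 22 lower (median -0.03), and 20 and 19 in females alone (median 0.01). Zbtb20, a transcription factor that promotes astrocyte formation, had 0.24 (SE 0.06, limma adjusted p = 0.305), and Id1, a target of bone morphogenetic protein signalling, had -0.15 (SE 0.06, adjusted p = 0.390). Among 20 genes of radial glia and neural stem cells, 11 were higher and 9 lower (median 0.03), and 14 and 6 in females alone (median 0.05), led by the receptor phosphatase gene Ptprz1 (0.19, adjusted p = 0.360). Among 9 genes of Bergmann glia, 4 were higher and 5 lower (median -0.10), as in females alone (median -0.08), led by A2m (-0.22), Etv4 (-0.22) and Gdf10 (-0.17), with adjusted p of 0.305, 0.316 and 0.367.

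Markers of the hindbrain and spinal cord, like Gfap, lay lower in the TP arrays within each sex. Of 14 measured genes, 13 were lower with TP over both sexes (median -0.26, and -0.24 in females alone, also with 13 lower) and 0 passed, and 10 were separated lower within both sexes, where 16.0% of all probe sets were. The smallest unadjusted p-values were those of Hoxb5, a patterning gene of the hindbrain and cord (-0.51), and of the glycinergic genes Slc6a5 (-0.41) and Glra1 (-0.29), with limma adjusted p of 0.289, 0.290 and 0.294. The mean log2 level of this list was 5.64 and 5.73 in female TP against 5.86 and 5.92 in female vehicle arrays, and 5.46 in the male TP against 5.82 in the male vehicle array. Endothelial and pericyte genes were lower for 11 of 12 over both sexes and in females alone (median -0.08 in each), and 6 of the 12 were separated lower within both sexes. Oligodendrocyte and myelin genes were lower for 10 of 11 over both sexes (median -0.11) and for 8 of 11 in females alone (median -0.04), with a median of -0.26 in the male pair. The mean level of the myelin list was 7.58 and 7.66 in female TP against 7.65 and 7.71 in female vehicle arrays, and 7.46 in the male TP against 7.76 in the male vehicle array. Ependyma and choroid plexus genes were lower for 9 of 11 (median -0.08), and for 8 of 11 in females alone (median -0.06). Genes of the meninges, which also make Gja1, were lower for 8 of 10 over both sexes (median -0.07) but for 5 of 10 in females alone (median 0.01), with a median of -0.12 in the male pair. Genes of cycling cells were lower for 10 of 11 (median -0.06), and for 9 of 11 in females alone (median -0.04), and 5 were separated lower within both sexes. Blood genes were divided, with 3 higher and 5 lower over both sexes (median -0.12) and in females alone (median -0.09). Over both sexes 6 of 8 had an unadjusted p under 0.05 by limma, where 12.3% of all probe sets did, and 0 passed. Of these 8 genes, all but Hbb-b2 and Alas2 were dim. The part of these lists in the Gfap, Gja1 and Aldh1l1 differences was not tested.

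**Figure D4:**
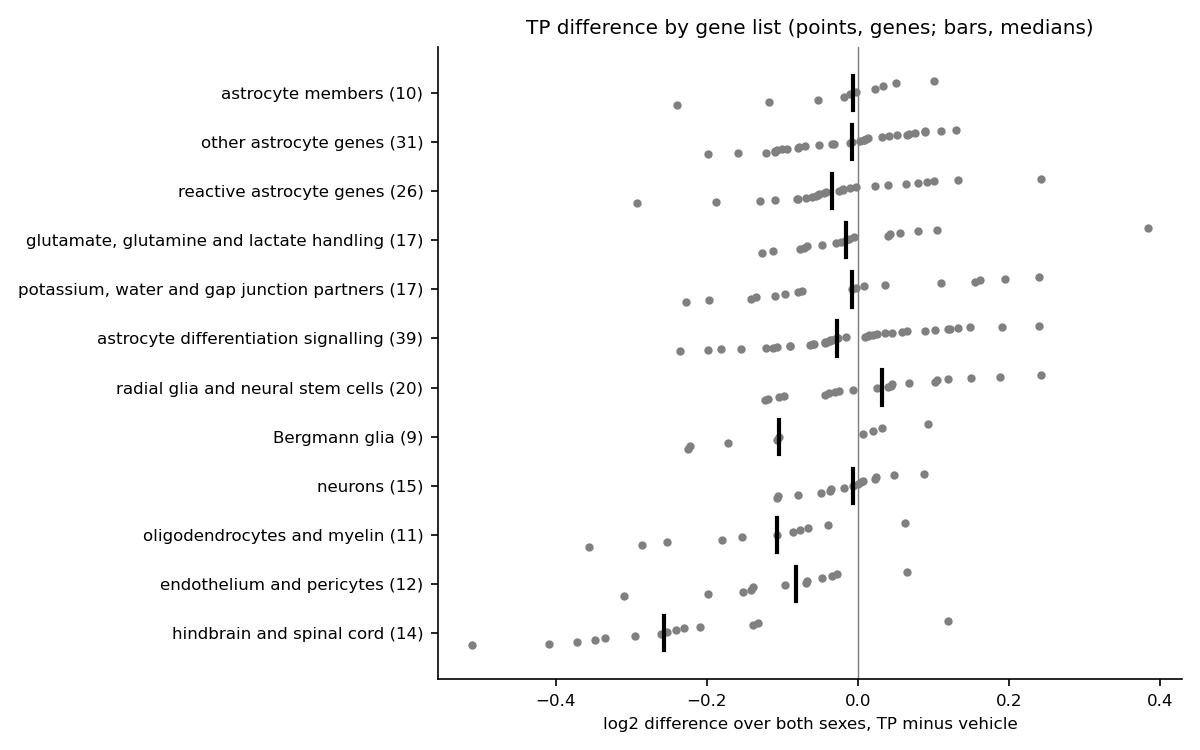
TP minus vehicle difference over both sexes (horizontal axis, log2 units) of each gene, by list, with the number of measured genes in brackets. Points are genes, 1 probe set each, and bars are list medians. The astrocyte lists centre near 0, and the hindbrain and spinal cord list lies lowest at a median of -0.26.

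Neuron genes gave a median of -0.0065 over 15 genes, and microglia genes of -0.05 over 12, against -0.02 and -0.01 in females alone. Sex steroid receptor and enzyme genes numbered 13, with 4 higher, 9 lower and 0 past the threshold (median -0.06), and 6 higher and 7 lower in females alone (median -0.0098). The smallest unadjusted p belonged to the estrogen receptor gene Esr2 (-0.26, limma adjusted p = 0.336), which was dim. The 17 genes named from lists for their smallest p, the sex-linked list aside, had the same sign in females alone. Their limma adjusted p there lay between 0.566 and 0.790. They were picked from the fit over both sexes, which holds the same female arrays. The agreement was thus largely fixed in advance and is no separate check.

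Genes with patterns most like Gfap over the 6 arrays were ranked among 12248 genes that were not dim, as a description. Rbmx2, Nans and Dusp15 had the highest Pearson r with the brightest Gfap probe set (0.996, 0.995 and 0.995). Eipr1, Rapgef1 and Pde1c had the highest r with the mean of the 10 members' brightest probe sets (0.998, 0.994 and 0.992). Rbmx2, for example, stood at 7.53 and 7.65 in female TP against 7.74 and 7.80 in female vehicle arrays, and at 7.58 in the male TP against 7.66 in the male vehicle array. The 6 points of each profile share arrays, pools and normalization.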

How the data were processed

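For 45101 probe sets on 6 Affymetrix arrays the authors deposited log2 values made with RMA, per the submitters' processing notes (version not given in the sources used here). RMA background-corrects, quantile-normalizes and combines the probes of a set, which pulls array distributions together. Precision is limited by having 6 arrays. Probe sets were named through the platform annotation (34945 with 1 gene, 932 with several, 9160 with none, 64 controls), and 34741 gene identifiers were found in RefSeq GRCm38.p6. Promoter windows came from RefSeq.

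A linear model per single-gene probe set was moderated with eBayes of limma 3.58.1 (R 4.3.3), without an intensity trend or a filter. Two-sided p-values were adjusted over all 34945 by Benjamini and Hochberg, and 0.05 was the threshold. The fit was tested on simulated data. Probe sets below the 40th percentile of mean level (5.49 log2 units), 6 of the 32, are called dim. Lists used the probe set with the highest mean per gene. All probe sets of the 10 genes, and per list up to 3 genes with the smallest p, were named. Also named were Gjb6 as a further connexin gene, the sex-linked genes as a label check and the genes most like Gfap or the members' mean. Members and lists were chosen with earlier results of these data known. Alternatives changed the probe sets tested, normalization, variance prior, replicate block and arrays. Figures used Python 3.11.15 and matplotlib 3.10.9.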

Additional observations from a re-analysis of the deposited data

Results flagged for a closer look

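Xist was the gene among those named whose TP difference was not alike in the sexes by the limma contrast. The male minus the female TP difference was 5.0 log2 units (SE 0.14, adjusted p = 1.43e-04), resting on 10.45 on the array labelled male TP against 5.29 on the male vehicle array. None of the 32 astrocyte probe sets passed this contrast.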

How the results depend on the processing

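In every comparison, 0 of the astrocyte probe sets passed under each alternative run, and the smallest adjusted p was 0.0706, for Gja1 over both sexes with an intensity trend. Of 446 single values recomputed under the other settings, 444 kept their sign. Aqp4 1434449_at over both sexes was 0.0018 with arrays centred on their medians, and Aldoc 1451461_a_at in females was -0.0061 with quantile normalization. With 1 array left out, 37 of 362 changed sign. Over both sexes the ranges were -0.084 to 0.058 for Aqp4 1434449_at, -0.17 to 0.017 for Aldoc 1424714_at, -0.037 to 0.0088 for Aldoc 1451461_a_at, -0.014 to 0.092 for Glul 1426235_a_at and -0.061 to 0.00051 for S100b 1419383_at. They were -0.054 to 0.027 for Slc1a2 1438194_at, -0.027 to 0.088 for Slc1a3 1426340_at, -0.052 to 0.18 for Slc1a3 1426341_at and -0.14 to 0.06 for Slc1a3 1439072_at. In females the ranges were -0.071 to 0.078 for Gja1 1415801_at, -0.09 to 0.16 for Aqp4 1434449_at, -0.0041 to 0.035 for Glul 1426236_a_at, -0.011 to 0.028 for Aldoc 1451461_a_at, -0.11 to 0.0017 for Aldh1l1 1424401_at, -0.091 to 0.017 for S100b 1419383_at and -0.091 to 0.067 for S100b 1434342_at. For Slc1a2 in females they were -0.0038 to 0.20 for 1433094_at, -0.074 to 0.067 for 1438194_at, -0.06 to 0.0016 for 1451627_a_at and -0.16 to 0.21 for 1459014_at. For Slc1a3 in females they were -0.07 to 0.13 for 1426340_at, -0.16 to 0.19 for 1439072_at and -0.011 to 0.13 for 1452031_at. Without either male array the fit over both sexes equals the female one.

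The members' median difference moved by more than the SD between replicate arrays of that median in a few cases. With 1 probe set per gene it was -0.007 over both sexes and -0.026 for the difference between the sexes, which was -0.042 with mean probe sets. For males against females it was -0.026 with quantile normalization and -0.025 with vehicle arrays alone. With 1 array left out it ran from -0.007 to 0.030 in females, -0.007 to 0.020 over both sexes, -0.038 to 0.017 for the difference between the sexes and -0.072 to -0.025 for males against females.

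Counts over all probe sets depended more on the setting; the cause was not tested. In females 2 passed, and 5 with 1 probe set per gene, 1 without dim probe sets, 5 with all probe sets, 6 with quantile normalization, 8 with median centring, 16 with an intensity trend, and 0 without any 1 array. Over both sexes 0 passed, and 4 with all probe sets, 38 with the trend and 0 to 2 with 1 array left out. For the difference between the sexes 7 passed, and 2 with 1 probe set per gene, 2 with mean probe sets, 12 with the trend and 6 to 6 with 1 array left out. For males against females 4 passed, and 0 without dim probe sets, 10 with all probe sets, 37 with the trend and 3 to 14 with 1 array left out. With the original or replica array as a replicate block, males against females gave 2 and the block changed no call of an astrocyte probe set. The array numbers are labels only, and the deviations of same-numbered female arrays correlated at 0.11.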
